A study of Homo sapiens with 9 samples.

Results

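The 10 genes AXIN2, NKD1, RNF43, ZNRF3, LGR5, ASCL2, LEF1, TCF7, SP5 and MYC, which beta-catenin and its TCF/LEF partners switch on in colon cancer cells, were followed in the cytoplasm of cells depleted of an mRNA export factor. The members were the genes of this list with an annotated probe on the array: 8 of the 10 had at least 1 probe, 11 probes in all, and 6 were tested among the 13118 genes that passed a filter on dim probes, of 18665 genes with a probe. ZNRF3 and TCF7 were not analysed here. The cells were HCT116, an established human colorectal carcinoma line, in 3 groups of 3 arrays: cells given GANP siRNA, cells given NXF1 siRNA and cells given control siRNA. All were harvested 72 h after transfection. Each group had 1 array in each of 3 depletion experiments, and RNA was taken from the cytoplasmic fraction left by digitonin permeabilisation. A fixed amount of RNA per sample was amplified and hybridised, and the signals were quantile normalized. The design therefore measures each transcript relative to the rest of the cytoplasmic RNA. A change in export, in transcription or in stability gives the same signal, as does a smaller share of expressing cells. A loss of RNA per cell shared by all transcripts would not show. Depletion was by transient siRNA in a single cell line.

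In the Wnt pathway, secreted Wnt proteins bind Frizzled and LRP receptors and stop a destruction complex, built on the AXIN and APC scaffolds, from marking beta-catenin for degradation. Stabilized beta-catenin then enters the nucleus and activates genes with TCF/LEF proteins, and several of those genes feed back on the pathway: AXIN2 rebuilds the destruction complex, NKD1 binds Dishevelled, and RNF43 and ZNRF3 remove Frizzled receptors from the cell surface. HCT116 cells carry a stabilizing mutation of the beta-catenin gene, so the pathway is active in them without added Wnt. GANP, the product of MCM3AP, and NXF1, the general mRNA export receptor, both act in the passage of mRNA through nuclear pores.

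The median deposited signal lay between 95.24 and 95.32 on the 9 arrays, which follows from the quantile normalization of the deposited values and is no check of the arrays. MCM3AP, the gene targeted by GANP siRNA, had log2 signals of 8.59, 8.80 and 8.76 in GANP siRNA-treated cells and 9.59, 9.80 and 9.88 in control siRNA-treated cells, a fold change of -1.04 on the log2 scale (SE 0.10, adjusted p = 7.02e-05, limma), and NXF1 itself was not analysed here. Of 12 colon epithelium markers 8 were above the filter, among them EPCAM, KRT8, KRT18 and KRT19, while VIL1, LGALS4, TFF3 and CDH17 were below it. Their summed linear signal was 64160 to 68520 with GANP siRNA, 78170 to 78610 with NXF1 siRNA and 63000 to 66530 with control siRNA. After NXF1 depletion 4 of the 8 tested, EPCAM, KRT8, KRT18 and CDH1, rose, where 11.6 percent of all genes tested were called up. Of 10 blood cell markers 5 were above the filter, with PTPRC, CD3E and HBB below, and of 10 fibroblast markers 4 were above it, with COL1A2, COL3A1 and LUM below. The summed linear signal of the fibroblast list was 2681 to 2898 with GANP siRNA, 1393 to 1515 with NXF1 siRNA and 1969 to 2181 with control siRNA, and that of the blood cell list was 1348 to 1581 with GANP siRNA, 1888 to 2072 with NXF1 siRNA and 1389 to 1531 with control siRNA. Single genes carried these sums: ACTA2 averaged 10.98 with GANP siRNA, 9.42 with NXF1 siRNA and 10.33 with control siRNA on the log2 scale, and HBA1 and HBA2 were the brightest of the blood cell list. The summed signal of 4 mostly nuclear RNAs was 3362 to 3996 with GANP siRNA, 5725 to 6756 with NXF1 siRNA and 2799 to 3155 with control siRNA. This sum followed RN7SK, which rose by 1.12 after GANP depletion (adjusted p = 0.000935) and by 2.51 after NXF1 depletion (adjusted p = 2.28e-06), whereas TUG1 fell by 0.31 after NXF1 depletion (adjusted p = 0.0446), MEG3 was not called after either and MALAT1 was below the filter. The part of these marker signals in the results below was not tested.

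After GANP depletion 2 of the 6 tested members fell in the cytoplasm, MYC and RNF43, where 5.9 percent of all genes tested were called down and 12.2 percent were called in either direction. After NXF1 depletion 2 of the 6 fell, AXIN2 and RNF43, where 14 percent of all genes were called down and 25.6 percent in either direction. Set directly against each other, the depletions differed for 2 of the 6: relative to NXF1 siRNA, GANP siRNA left AXIN2 higher and MYC lower, where 11.3 percent of all genes were called up, 8.29 percent down and 19.6 percent in either direction. A gene was called when its fold change on the log2 scale lay outside -0.25 to 0.25 and its adjusted p was below 0.05, from limma's moderated test on log2 signals with Benjamini-Hochberg adjustment over all 13118 genes. With so few members tested, 2 calls among 6 are no more than a count beside those shares. AXIN2 was listed with its result known. The study names it as an NXF1 target found on these arrays, with its level unchanged after GANP depletion. Its calls are therefore not independent of the choice of members. Both comparisons with control siRNA use the same 3 control arrays. The methods describe the 3 experiments as independent depletions. The p-values rest on the spread among the 3 arrays of a group, each from a different experiment. They do not use the pairing of arrays within experiments. The median log2 fold change of the 6 members was -0.10 after GANP depletion, -0.22 after NXF1 depletion and 0.04 for GANP siRNA over NXF1 siRNA, beside 0.00, 0.00 and 0.00 for all genes tested.

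**Figure D1:**
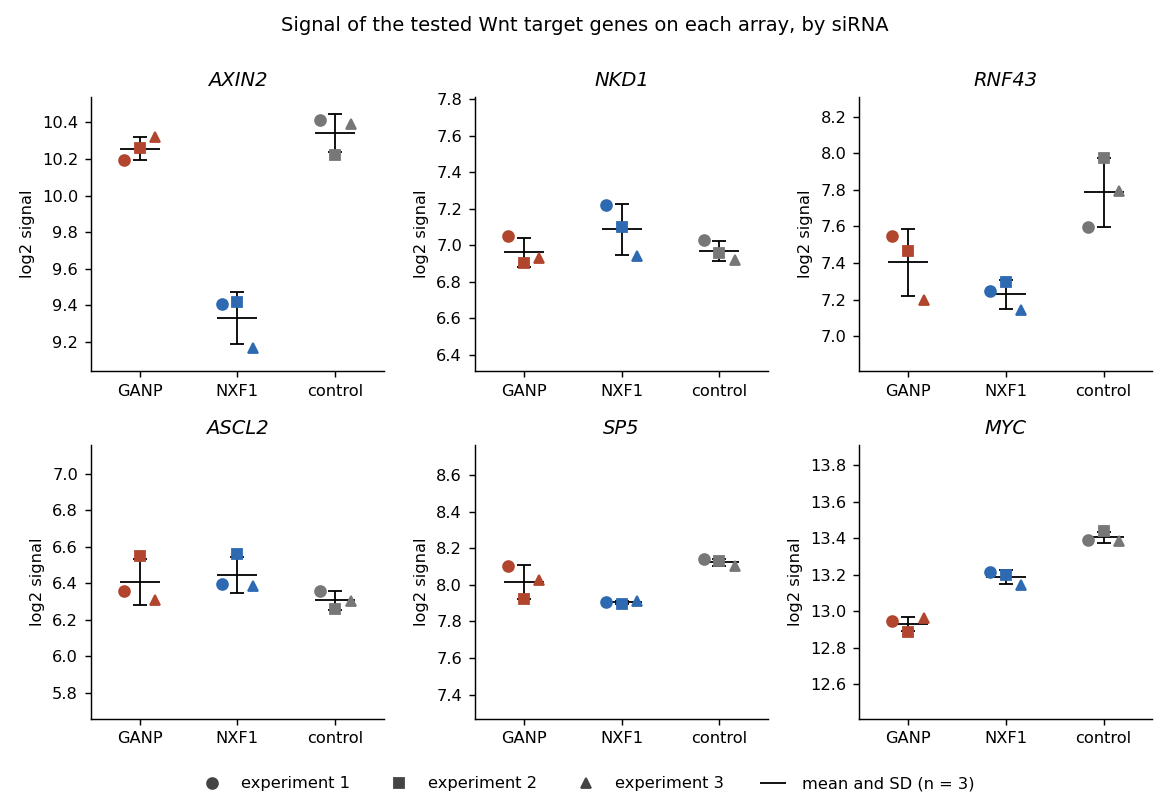
Log2 signal (y axis, each panel spanning 1.5 log2 units) of the 6 tested members on each of the 9 arrays, by siRNA (x axis), with symbols for the 3 depletion experiments and a bar for the mean and SD. AXIN2 is low on the 3 NXF1 siRNA arrays (9.16 to 9.42), RNF43 is highest on the 3 control siRNA arrays (7.60 to 7.98), and MYC falls into 3 separate levels, lowest with GANP siRNA (12.89 to 12.96).

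AXIN2 encodes a scaffold of the destruction complex and is a widely used readout of beta-catenin activity. Its log2 signals were 10.19, 10.26 and 10.32 in GANP siRNA-treated cells, 9.41, 9.42 and 9.16 in NXF1 siRNA-treated cells, and 10.41, 10.22 and 10.39 in control siRNA-treated cells, which on the deposited linear scale were 1183, 1239 and 1289, then 692, 697 and 586, then 1377, 1209 and 1353. The 3 NXF1 siRNA arrays lay far below the other 6 arrays, whereas GANP siRNA and control siRNA arrays overlapped. After NXF1 depletion AXIN2 fell to 49.6% of its level with control siRNA, a log2 fold change of -1.01 (SE 0.09, 95% confidence interval -1.21 to -0.82, adjusted p = 1.43e-05), and only 0.312% of the genes tested had a fold change as low or lower. After GANP depletion its log2 fold change was -0.09 (SE 0.09, 95% confidence interval -0.28 to 0.11, adjusted p = 0.623), an interval that allows a decrease of the size of the call threshold. The direct comparison gave 0.93 for GANP siRNA over NXF1 siRNA (SE 0.09, adjusted p = 3.81e-05). Within the experiments, NXF1 siRNA minus control siRNA was -1.01, -0.81 and -1.23, and GANP siRNA minus control siRNA was -0.22, 0.04 and -0.07, so the first comparison ran the same way in every experiment and the second did not.

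NKD1, an inhibitor that binds Dishevelled, was not called in any comparison. Its brighter probe read 7.05, 6.90 and 6.93 with GANP siRNA, 7.22, 7.10 and 6.94 with NXF1 siRNA, and 7.03, 6.96 and 6.92 with control siRNA. Its dimmer probe read 6.44, 6.44 and 6.48 with GANP siRNA, 6.57, 6.23 and 6.22 with NXF1 siRNA, and 6.65, 6.51 and 6.44 with control siRNA. All 3 groups overlapped on the brighter probe, and on the dimmer one each depletion overlapped the control arrays. The brighter probe differed by -0.01 after GANP depletion (SE 0.09, adjusted p = 0.968) and by 0.12 after NXF1 depletion (SE 0.09, adjusted p = 0.38), whereas the dimmer probe, fitted among all 24401 probes above the filter, gave -0.08 (SE 0.10, adjusted p = 0.74) and -0.19 (SE 0.10, adjusted p = 0.223). For NXF1 siRNA the probes thus had opposite signs, and the gene has no settled direction there.

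RNF43, a membrane ubiquitin ligase that clears Frizzled from the cell surface, was lower after both depletions. Its log2 signals were 7.55, 7.47 and 7.20 with GANP siRNA, 7.25, 7.30 and 7.14 with NXF1 siRNA, and 7.60, 7.98 and 7.79 with control siRNA. Every depleted array lay below every control array, by a narrow gap for GANP siRNA array 1, and the GANP siRNA and NXF1 siRNA arrays overlapped. With NXF1 siRNA it fell to 67.8% of its level with control siRNA, a log2 fold change of -0.56 (SE 0.11, adjusted p = 0.00279), and with GANP siRNA to 76.5%, a log2 fold change of -0.39 (SE 0.11, adjusted p = 0.0431). The depletions differed by 0.18 for GANP siRNA over NXF1 siRNA (SE 0.11, 95% confidence interval -0.07 to 0.42, adjusted p = 0.317). Within the experiments the difference was -0.05, -0.51 and -0.60 for GANP siRNA minus control siRNA and -0.35, -0.68 and -0.65 for NXF1 siRNA minus control siRNA, with experiment 1 the smallest in both. The call after GANP depletion was close to the threshold: it ended when GANP siRNA array 2 (adjusted p = 0.076), GANP siRNA array 3 (0.161), NXF1 siRNA array 2 (0.0565), control siRNA array 2 (0.172) or control siRNA array 3 (0.0993) was left out, and when RNF43 was tested among all 24401 probes above the filter (0.0538). The call after NXF1 depletion held without each of the 9 arrays in turn.

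LGR5, a receptor for R-spondins that marks intestinal stem cells, was too dim for the test. Its single probe averaged 6.17 on the log2 scale, below the filter at 6.35, the median of all probes. It read 5.92, 6.22 and 6.13 with GANP siRNA, 6.27, 6.22 and 6.19 with NXF1 siRNA, and 6.38, 6.09 and 6.08 with control siRNA, with all 3 groups overlapping. In a fit of all 48803 probes it was not called after GANP depletion (-0.09, SE 0.10, adjusted p = 0.828) or after NXF1 depletion (0.04, SE 0.10, adjusted p = 0.918).

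Among the transcription factors of the list, LEF1, which carries beta-catenin on DNA, was also below the filter on both of its probes, which averaged 6.28 and 6.26. The first probe read 6.42, 6.32 and 6.30 with GANP siRNA, 6.28, 6.18 and 6.30 with NXF1 siRNA, and 6.51, 6.07 and 6.13 with control siRNA. The second read 6.22, 6.30 and 6.13 with GANP siRNA, 6.34, 6.21 and 6.26 with NXF1 siRNA, and 6.12, 6.60 and 6.14 with control siRNA. Each probe had a high control array, array 1 for the first and array 2 for the second, while the other control values lay between 6.07 and 6.14, and each depletion overlapped the control arrays. In the fit of all probes neither was called: the first differed by 0.11 after GANP depletion and 0.01 after NXF1 depletion (adjusted p = 0.802 and 0.984), and the second by -0.07 and -0.01 (adjusted p = 0.903 and 0.98). ASCL2, a basic helix-loop-helix factor of intestinal stem cells, lay just above the filter with a mean of 6.39. It read 6.36, 6.55 and 6.31 with GANP siRNA, 6.40, 6.56 and 6.38 with NXF1 siRNA, and 6.36, 6.26 and 6.30 with control siRNA, with the NXF1 siRNA arrays above every control array, the GANP siRNA and control siRNA arrays overlapping, and array 2 the highest in both depletions. It differed by 0.10 after GANP depletion (SE 0.09, adjusted p = 0.536) and by 0.14 after NXF1 depletion (SE 0.09, adjusted p = 0.276), and the depletions differed by -0.04 (adjusted p = 0.802).

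**Figure D2:**
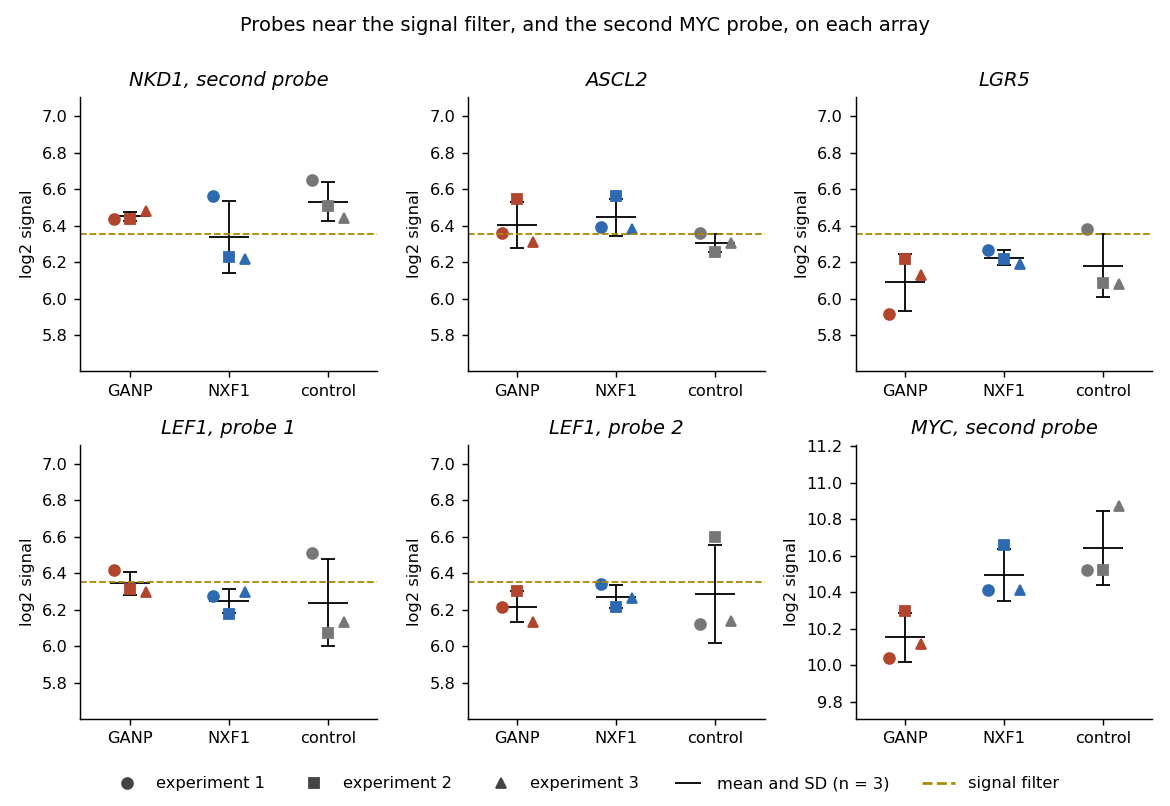
Log2 signal (y axis) on each array, by siRNA (x axis), of the second NKD1 probe, ASCL2, LGR5 and both LEF1 probes, with the signal filter at 6.35 as a dashed line, and of the second MYC probe on an axis of its own. Symbols are the 3 experiments and bars the mean and SD. The 3 groups of LGR5 and of the second LEF1 probe overlap around or below the filter, and the second MYC probe is lower on all 3 GANP siRNA arrays (10.04 to 10.30) than on the control siRNA arrays (10.52 to 10.88).

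SP5, a zinc finger repressor that Wnt signalling induces, is shown with the sequence at its start site because TCF/LEF proteins recognise short motifs of the form CTTTGAT and CTTTGAA. RNF43 is shown beside it because it was called down after both depletions, narrowly so after GANP depletion. The promoter windows run from 250 bases before to 50 bases after the annotated start, 5′ to 3′ along the gene, from RefSeq on GRCh38.p14: chr2:170715087-170715386 on the plus strand for SP5 and chr17:58417485-58417784 on the minus strand for RNF43. Capitals mark a motif match, and a match on the opposite strand reads as its reverse complement.
SP5: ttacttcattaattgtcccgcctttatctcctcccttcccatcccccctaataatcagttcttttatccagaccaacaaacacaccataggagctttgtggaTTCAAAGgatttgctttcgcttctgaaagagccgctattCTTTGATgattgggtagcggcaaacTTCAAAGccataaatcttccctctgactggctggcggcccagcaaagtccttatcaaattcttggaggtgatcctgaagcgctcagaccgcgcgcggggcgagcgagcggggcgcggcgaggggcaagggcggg
RNF43: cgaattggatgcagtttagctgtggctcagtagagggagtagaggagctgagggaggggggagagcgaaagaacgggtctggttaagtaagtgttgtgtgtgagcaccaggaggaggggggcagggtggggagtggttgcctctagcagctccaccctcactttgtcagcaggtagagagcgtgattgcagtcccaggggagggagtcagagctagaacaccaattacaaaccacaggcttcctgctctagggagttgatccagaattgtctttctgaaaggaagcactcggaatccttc
The SP5 window held 3 matches: CTTTGAA on the opposite strand 148 bases upstream of the start, CTTTGAT on the gene's own strand 109 bases upstream, and CTTTGAA on the opposite strand 84 bases upstream. Searched on both strands, CTTTGAT was in 2.62% of 35116 promoter windows of the same length, CTTTGAA in 4.43% and either motif in 6.86%. Of the 10 members 4 had a window in the RefSeq table (RNF43, LEF1, TCF7 and SP5, with 6 windows in all), and SP5 was the member with a match. RNF43 had another annotated window, which is not shown and held no match. These are matches of letters in the named windows and carry no measurement of binding.

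SP5 read 8.10, 7.92 and 8.03 with GANP siRNA, 7.91, 7.90 and 7.91 with NXF1 siRNA, and 8.14, 8.13 and 8.10 with control siRNA. All 3 NXF1 siRNA arrays were below every other array, with a spread of 0.01 (SD, n = 3), while GANP siRNA array 1 reached the control arrays. Its log2 fold change after NXF1 depletion was -0.22 (SE 0.07, 95% confidence interval -0.38 to -0.06, adjusted p = 0.0441), past the adjusted threshold and short of the fold threshold, so it was not called, and the level was 85.9% of that with control siRNA. After GANP depletion it differed by -0.11 (SE 0.07, adjusted p = 0.406), and GANP siRNA over NXF1 siRNA gave 0.11 (SE 0.07, 95% confidence interval -0.05 to 0.27, adjusted p = 0.331).

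MYC, the growth-promoting transcription factor, showed the reverse order of the depletions from AXIN2. Its brighter probe read 12.94, 12.89 and 12.96 with GANP siRNA, 13.22, 13.20 and 13.15 with NXF1 siRNA, and 13.39, 13.44 and 13.38 with control siRNA, so that the 3 groups did not overlap and the GANP siRNA arrays were the lowest. Of the 6 members, 2 had groups that did not overlap in GANP siRNA against control siRNA, 5 in NXF1 siRNA against control siRNA and 3 in GANP siRNA against NXF1 siRNA. The share of all genes whose groups did not overlap was 31.3 percent for GANP siRNA against control siRNA, 39.7 percent for NXF1 siRNA against control siRNA and 34.6 percent for GANP siRNA against NXF1 siRNA. With GANP siRNA MYC fell to 72.1% of its level with control siRNA, a log2 fold change of -0.47 (SE 0.07, 95% confidence interval -0.62 to -0.32, adjusted p = 0.00115). With NXF1 siRNA the fold change was -0.22 (SE 0.07, 95% confidence interval -0.37 to -0.06, adjusted p = 0.0373), short of the fold threshold and not called. By adjusted p alone 4 of the 6 members, SP5 and MYC included, were past 0.05 after NXF1 depletion, where 26.8 percent of all genes were. That count was 2 without NXF1 siRNA array 2 or 3 or any 1 of the control siRNA arrays (adjusted p of up to 0.113 for SP5 and 0.122 for MYC), 3 without GANP siRNA array 2 or 3 or NXF1 siRNA array 1, and among all 24401 probes above the filter neither SP5 (0.0663) nor MYC (0.0589) was past 0.05. The direct comparison gave -0.26 for GANP siRNA over NXF1 siRNA (SE 0.07, 95% confidence interval -0.41 to -0.10, adjusted p = 0.0219).

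The second MYC probe, which the gene-level test did not use, read 10.04, 10.30 and 10.12 with GANP siRNA, 10.41, 10.66 and 10.42 with NXF1 siRNA, and 10.53, 10.52 and 10.88 with control siRNA. Its GANP siRNA arrays were below all others, and its NXF1 siRNA and control siRNA arrays overlapped. In the fit over 24401 probes it fell by 0.49 on the log2 scale after GANP depletion (SE 0.11, adjusted p = 0.0178), where 3.91 percent of probes were called down. It differed by -0.15 after NXF1 depletion (SE 0.11, adjusted p = 0.449) and by -0.34 for GANP siRNA over NXF1 siRNA (SE 0.11, adjusted p = 0.0638). Within the experiments, GANP siRNA minus control siRNA was -0.44, -0.55 and -0.42 on the brighter probe and -0.48, -0.22 and -0.76 on the second, lower in every experiment on both. The direct difference between the depletions was less firm: on the brighter probe its call ended without GANP siRNA array 2 (adjusted p = 0.0853), NXF1 siRNA array 1 (0.0523) or NXF1 siRNA array 2 (0.0642), whereas the call after GANP depletion held without each of the 9 arrays in turn.

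**Figure D3:**
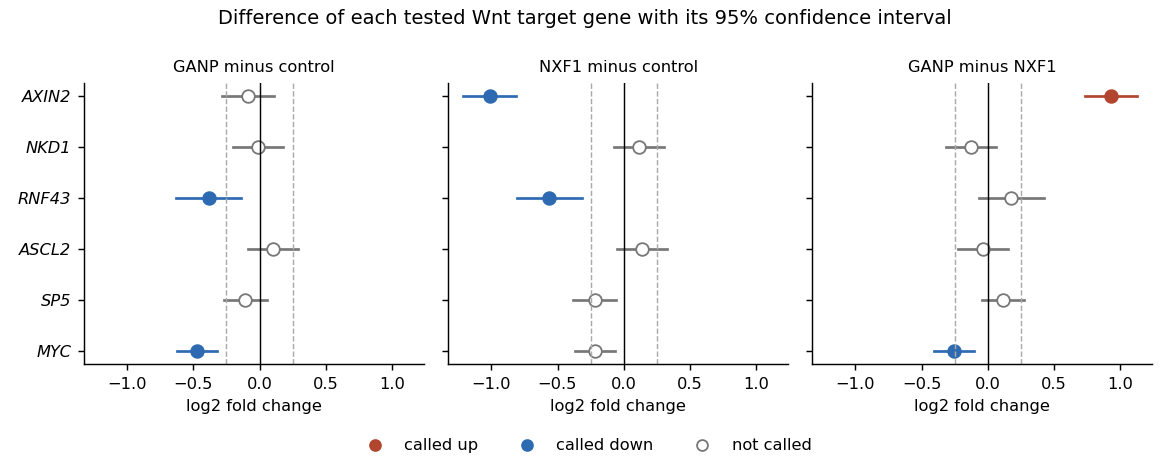
Log2 fold change (x axis) of the 6 tested members (y axis) with its 95% confidence interval, for GANP siRNA minus control siRNA, NXF1 siRNA minus control siRNA and GANP siRNA minus NXF1 siRNA, with dashed lines at the fold threshold of 0.25 on either side of 0. AXIN2 stands at -1.01 for NXF1 siRNA and at -0.09 for GANP siRNA, MYC at -0.47 for GANP siRNA and -0.22 for NXF1 siRNA, and RNF43 at -0.39 and -0.56.

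The members did not share a single profile over the 9 arrays. As a description over arrays that share groups and experiments, the Pearson correlation of log2 signals was 0.78 between AXIN2 and SP5, 0.65 between AXIN2 and RNF43, 0.77 between RNF43 and SP5, 0.56 between RNF43 and MYC, and 0.03 between AXIN2 and MYC. Among the 13118 genes tested, those most like AXIN2 were TKFC (r = 0.99), REPIN1 (0.99), WDR54 (0.99), ZNF428 (0.98) and BEX2 (0.98), with log2 fold changes after NXF1 depletion between -1.18 for WDR54 and -0.49 for TKFC. Those most like MYC were MIEF1 (r = 0.98), ENTR1 (0.97), MLEC (0.97), DDN (0.97) and GCAT (0.97), with log2 fold changes after GANP depletion between -1.15 for MLEC and -0.33 for ENTR1.

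Other genes often listed as Wnt targets moved in both directions. Of 27 tested, 1 rose and 5 fell after GANP depletion, and 5 rose and 7 fell after NXF1 depletion. Of all genes tested, 6.28 percent were called up and 5.9 percent down after GANP depletion, and 11.6 percent up and 14 percent down after NXF1 depletion. ID2, an inhibitor of basic helix-loop-helix factors, read 13.27, 13.31 and 13.39 with GANP siRNA, 12.84, 12.75 and 12.85 with NXF1 siRNA, and 12.39, 12.51 and 12.56 with control siRNA, and it rose by 0.84 after GANP depletion (SE 0.08, adjusted p = 7.63e-05). CD44, the hyaluronan receptor, read 10.97, 11.02 and 11.15 with GANP siRNA, 10.64, 10.83 and 10.63 with NXF1 siRNA, and 11.60, 11.65 and 11.54 with control siRNA, and it fell after both, by 0.55 and by 0.90. CDCA7, a MYC-responsive cell cycle gene, fell by 0.49 after GANP depletion (adjusted p = 0.00195). It was also lower with NXF1 siRNA, at 12.83 to 12.94 against 13.17 or more with control siRNA. JUN and PLAUR, the urokinase receptor, rose after NXF1 depletion by 1.23 and 0.97 (adjusted p = 1.97e-05 and 6.87e-06), and SOX4, a transcription factor of progenitor cells, fell by 0.91 (adjusted p = 0.000367). FOSL1, an AP-1 subunit, fell by 0.68 after GANP depletion (adjusted p = 0.0132) and was lower by -1.13 with GANP siRNA than with NXF1 siRNA (adjusted p = 0.000407). After NXF1 depletion FOSL1 differed by 0.45 from control siRNA and narrowly missed the call (adjusted p = 0.0506), and it was called up with the experiment as a replicate block (adjusted p = 0.000705). Its call after GANP depletion ended without GANP siRNA array 3 (0.0534) or control siRNA array 1 (0.0512). With the replicate block and all arrays it was called down after GANP depletion (adjusted p = 0.000191). The count of falling genes after GANP depletion was 2 in place of 5 without either of these arrays and 3 without control siRNA array 2. After NXF1 depletion 3 genes rose, in place of 5, without control siRNA array 2.

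Upstream of beta-catenin, the counts stand beside 12.2 percent of all genes called after GANP depletion and 25.6 percent after NXF1 depletion. None of 13 Wnt ligands and secretion genes, 13 receptor genes and 8 secreted modulators was called after GANP depletion in the limma fit without a replicate block. With the experiment as a replicate block in that fit, 1 gene of each list was called. Over all 13118 genes tested, 2308 were then called in place of 1598. Without a single array this count also reached 1, for ligands without NXF1 siRNA array 2 or 3, for receptors without NXF1 siRNA array 1 and for modulators without GANP siRNA array 2 or control siRNA array 3. After NXF1 depletion 2 of the 13 ligands rose, WNT7B by 0.58 (adjusted p = 0.00623) and WNT3 by 0.32 (adjusted p = 0.00776), and 4 of the 13 receptor genes fell, of which FZD9 had the largest change at -0.56 (adjusted p = 0.00205) and held its call without each array in turn, while the count of falling receptors was 2 without NXF1 siRNA array 1 or control siRNA array 3. Of the 8 modulators 2 rose. KREMEN2, a co-receptor of Dickkopf proteins, rose by 0.67 after NXF1 depletion (adjusted p = 0.00252), and with the experiment as a replicate block it was the modulator called after GANP depletion (0.42, adjusted p = 0.00364). DKK1, a secreted inhibitor of LRP receptors, was the other modulator called, at 0.40 (adjusted p = 0.0382), and its call ended without NXF1 siRNA array 2 or 3 or control siRNA array 2 or 3 (adjusted p = 0.1 to 0.13). DKK1, BAMBI, NOTUM and APCDD1 are also on the list of other Wnt targets, so the DKK1 call counts in both lists.

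In the destruction complex, 3 of 18 genes rose and 1 fell after GANP depletion, and 5 rose and 2 fell after NXF1 depletion, where 6.28 percent of all genes were called up and 5.9 percent down after GANP depletion and 11.6 percent up and 14 percent down after NXF1 depletion. GSK3B, the kinase that marks beta-catenin for degradation, read 11.31, 11.50 and 11.65 with GANP siRNA, 11.45, 11.74 and 11.77 with NXF1 siRNA, and 10.75, 10.72 and 10.77 with control siRNA, with every depleted array above every control array. It rose by 0.74 after GANP depletion (adjusted p = 0.000918) and by 0.91 after NXF1 depletion (adjusted p = 6.76e-05). AMER1, a scaffold of the complex, fell after both, by 0.55 (adjusted p = 0.00211) and by 0.54 (adjusted p = 0.000909). RNF146, a ubiquitin ligase that removes axin marked by tankyrase, fell by 0.58 after NXF1 depletion (adjusted p = 0.00362), and TNKS, the tankyrase itself, rose by 0.50 (adjusted p = 0.00116). Without GANP siRNA array 3 or control siRNA array 1, GSK3B was the single gene of this list that rose after GANP depletion, and without NXF1 siRNA array 3 the number that rose after NXF1 depletion was 3, as it was with the mean of a gene's probes. Beta-catenin's own gene, CTNNB1, was not called after GANP depletion (0.10, SE 0.10, adjusted p = 0.585) or NXF1 depletion (-0.19, SE 0.10, adjusted p = 0.166). GANP siRNA over NXF1 siRNA gave 0.29 with an adjusted p of 0.0496, so CTNNB1 was called up there, just inside the threshold. Of the 11 genes listed for beta-catenin and Dishevelled, 2 rose and 0 fell after GANP depletion and 2 rose and 1 fell after NXF1 depletion, beside the same shares of all genes. JUP, which encodes plakoglobin, a close relative of beta-catenin, rose by 0.52 after GANP depletion (adjusted p = 0.00189), and FRAT2, a GSK3-binding protein, fell by 1.05 after NXF1 depletion (adjusted p = 1.92e-05). CDH1, which encodes E-cadherin, rose by 0.85 after NXF1 depletion (adjusted p = 0.0109) and is also among the colon epithelium markers. With the experiment as a replicate block it was called up after GANP depletion too (0.53, adjusted p = 0.0149). CTNNA1, the alpha-catenin gene, was the other one called up after both, at 0.30 and 0.26, and its call ended after GANP depletion without GANP siRNA array 2 or 3 or control siRNA array 1 or 2 (adjusted p = 0.056 to 0.102), and after NXF1 depletion without NXF1 siRNA array 3 or control siRNA array 1 or 2 (0.072 to 0.111). With the mean of its probes CTNNA1 gave 0.18 (adjusted p = 0.128) and 0.09 (adjusted p = 0.418), so neither call held.

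At the level of the nuclear partners, 2 of 27 TCF/LEF co-factors rose and 0 fell after GANP depletion in the limma fit without a replicate block. With the experiment as a replicate block 5 were called, where 2308 of all 13118 genes were called in place of 1598. In the fit without the block, the count was 1 without GANP siRNA array 2 or NXF1 siRNA array 2. It was 0 when GANP siRNA array 3 or any 1 of the control siRNA arrays was left out. Of the same list 2 rose and 5 fell after NXF1 depletion. Of all genes tested, 12.2 percent were called after GANP depletion and 25.6 percent after NXF1 depletion. The shares called were 7.41 and 25.9 percent of these co-factors, and 12.5 and 25 percent of the MYC network below. These shares are near or below those of all genes. CTNNBIP1, which blocks the binding of beta-catenin to TCF, read 8.45, 8.38 and 8.13 with GANP siRNA, 7.76, 7.27 and 7.19 with NXF1 siRNA, and 8.13, 8.47 and 8.40 with control siRNA, and it fell by 0.92 after NXF1 depletion (adjusted p = 0.000571). PYGO2, a co-activator, fell by 0.57 after NXF1 depletion (adjusted p = 0.00346) and with the block was called down after GANP depletion as well (-0.31, adjusted p = 0.0113). CTBP2, a co-repressor, and CREBBP, an acetyltransferase, rose by 0.47 and 0.50 after NXF1 depletion (adjusted p = 0.000789 and 0.00499). In the MYC network, 2 of 16 genes rose and 0 fell after GANP depletion without the block, and 0 rose and 4 fell after NXF1 depletion. MYCBP, a MYC-binding protein, had the lowest value of the list after GANP depletion, -0.55 (SE 0.19, adjusted p = 0.076), and was called down with the experiment as a replicate block (adjusted p = 0.00379). The number that fell after GANP depletion was also 1 when only the 2 groups compared were fitted and without GANP siRNA array 1 or NXF1 siRNA array 1 or 3. MXD4, a MAX partner that competes with MYC, read 10.76, 10.71 and 10.70 with GANP siRNA, 9.80, 9.58 and 9.69 with NXF1 siRNA, and 10.10, 10.01 and 9.89 with control siRNA. It rose by 0.73 after GANP depletion (adjusted p = 0.000273) and was 1.03 higher with GANP siRNA than with NXF1 siRNA (adjusted p = 1.45e-05). The other gene that rose after GANP depletion, MLXIPL, lost its call without each of 7 arrays in turn (adjusted p = 0.0525 to 0.169), all but GANP siRNA array 1 and NXF1 siRNA array 1. Without NXF1 siRNA array 2 or control siRNA array 2 the number of MYC network genes that fell after NXF1 depletion was 1, MXD3 (-0.48 with all arrays, adjusted p = 0.00442), and without control siRNA array 1 or 3 it was 2.

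**Figure D4:**
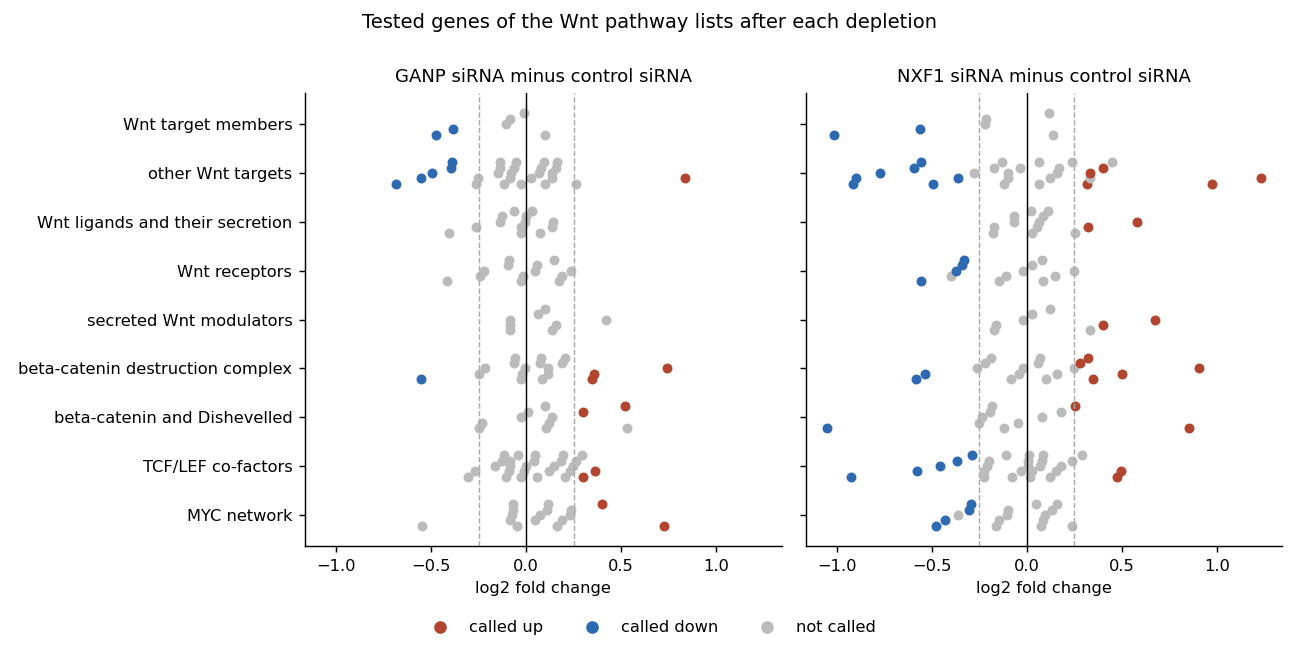
Log2 fold change (x axis) of each tested gene of the members and of 8 Wnt pathway lists (y axis) for GANP siRNA minus control siRNA and NXF1 siRNA minus control siRNA, each point a gene, coloured by its call, with small vertical offsets for visibility and dashed lines at the fold threshold. A gene shared by lists, such as DKK1, is drawn in each. The points past the threshold include ID2 at 0.84 after GANP depletion, and JUN at 1.23, FRAT2 at -1.05 and AXIN2 at -1.01 after NXF1 depletion.

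Set directly against each other, the depletions differed in 8 of the 27 other Wnt targets, beside 11.3 percent of all genes called up and 8.29 percent down, of which 5 were higher in GANP siRNA-treated cells and 3 lower. Without GANP siRNA array 3 the number higher was 3. SOX4 was 0.89 higher (adjusted p = 0.000754), and JUN and PLAUR were lower, at -0.97 and -0.81 (adjusted p = 0.000171 and 3.76e-05). Of the receptors, FZD2 and LRP5 were 0.58 and 0.48 higher (adjusted p = 0.00158 and 0.00345). RNF146 was 0.65 higher (adjusted p = 0.0027), FRAT2 0.82 higher (adjusted p = 0.000169), JUP 0.57 higher (adjusted p = 0.000607) and CTNNBIP1 0.91 higher (adjusted p = 0.00102), each of them without loss of the call when any 1 array was left out. In the MYC network 5 of 16 genes were higher and 0 lower, among them MXD4, MLXIPL (0.83, adjusted p = 0.000549) and MXD3 (0.59, adjusted p = 0.00184). With GANP siRNA 3 of 13 Wnt ligands were lower, WNT7B, WNT5B and WNT10B, and none of these 3 calls was kept without GANP siRNA array 2 or without GANP siRNA array 3, and 1 was kept without NXF1 siRNA array 1 or control siRNA array 2 (adjusted p of the lost calls 0.0504 to 0.141). WNT10B also lost its call without NXF1 siRNA array 2 (0.149) or control siRNA array 3 (0.051), and WNT5B without NXF1 siRNA array 3 (0.0976).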

How the data were processed

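Cytoplasmic RNA of HCT116 cells was hybridised to 9 Illumina HumanWG-6 v3 arrays, 3 per siRNA. The table the authors deposited holds quantile normalized signal intensity on the linear scale for 48803 probes, made with BeadStudio, lumi (version not given) and limma, with no visible subtraction of background. A further 18 columns of values without normalization carry no sample name and were not used. Gene names came from the platform annotation, in which 27578 probes had 1 symbol, 13 several and 21212 none.

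From the deposited intensities, background was corrected by normexp (offset 50), followed by quantile normalization and log2 in limma 3.58.1 (R 4.3.3). Genes were tested on their brightest probe with mean log2 signal above 6.35 (13118 genes), in 1 fit of the 3 groups, with moderated tests and Benjamini-Hochberg adjustment. The fit and the call rule were tested on simulated gene values without an experiment effect, and the steps before the fit were not. Arrays limit precision by their number, 3 per group.

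Experiment numbers come from the sample titles. Deviations from group means correlated at 0.107 to 0.461 for the 9 same-numbered pairs and -0.402 to 0.12 for the 18 others, so the numbers pair the arrays. The fit without this block is given, as the study's methods name none, and the block is an alternative.

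Named were every member, up to 4 called genes of each pathway list with the largest change, favouring those whose call held without each array, the 5 genes most correlated with AXIN2 and with MYC, and CTNNB1 and MYCBP, chosen after their values were seen. Members and lists were chosen with earlier results of these data known. Among these, the study names AXIN2 as an NXF1 target and FOSL1 as a target of GANP alone. Alternatives covered background correction, normalization, the authors' values, the filter, the probe rule, the arrays in the fit, the variance model, the thresholds and each array left out.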

Additional observations from a re-analysis of the deposited data

Results flagged for a closer look

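For both results here the effect of one depletion differed from that of the other in the direct test of GANP siRNA against NXF1 siRNA. AXIN2 was 0.93 higher on the log2 scale with GANP siRNA than with NXF1 siRNA (adjusted p = 3.81e-05, limma), with differences of 0.78, 0.84 and 1.16 within the 3 experiments. The study had already named AXIN2 as an NXF1 target from these arrays. MYC differed by -0.26 (adjusted p = 0.0219, limma), with -0.27, -0.31 and -0.18 within the experiments.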

How the results depend on the processing

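Each member was refitted under 18 alternatives (17 for NKD1 and ASCL2, which were below a filter at percentile 75), and no fold change past the threshold reversed. With a replicate block for the experiment, 2 members were called in each of the 3 comparisons and no member's call changed, while 2308 genes were called after GANP depletion in place of 1598. After GANP depletion 1 member was called, MYC, when only the 2 groups compared were fitted (RNF43 adjusted p = 0.06) or the adjusted p threshold was 0.01, and 1 to 2 without single arrays. After NXF1 depletion 4 were called with no fold threshold, with MYC and SP5 added, and 2 without each single array. Between the depletions 1 was called at the threshold of 0.01, AXIN2, and 1 to 2 without single arrays. AXIN2 after NXF1 depletion was called under all 18 alternatives, with fold changes of -1.07 to -0.93 and adjusted p of 2.25e-06 to 0.000133, as were its difference between the depletions (0.84 to 0.97), MYC after GANP depletion (-0.49 to -0.45) and RNF43 after NXF1 depletion (-0.66 to -0.47). RNF43 after GANP depletion was called under 12 of 18 (adjusted p = 0.0186 to 0.172) and MYC between the depletions under 15 of 18 (0.00489 to 0.0853). In the fit of all probes MYC was not called between the depletions (adjusted p = 0.0593). Of 2247 refitted values of the named pathway genes, 2107 kept their side of the threshold and 111 lost and 29 gained a call, and none reversed. Over all genes, the count called after GANP depletion was 659 at the threshold of 0.01, 1050 without GANP siRNA array 2, 948 without GANP siRNA array 3, 879 without control siRNA array 2 and 1055 without control siRNA array 3, against 1598. At the threshold of 0.01 it was 2127 after NXF1 depletion, against 3363, and 1332 between the depletions, against 2571, and the genes lower between the depletions numbered 668 without GANP siRNA array 2 and 708 without NXF1 siRNA array 2, against 1088. Signals near the filter limit LGR5, LEF1 and ASCL2, whose values bound a fold change poorly.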
